A study of Mus musculus with 18 samples.

Results

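The response to lipopolysaccharide (LPS) of bone marrow-derived macrophages (BMDMs) that had first met interleukin 10 (IL-10) was taken from 6 of the 18 libraries of the series, namely the 3 LPS + IL-10 libraries and the 3 Unstimulated + IL-10 libraries, chosen by their titles. All cells came from Il10-/- mice on the C57BL/6J background, which make no functional IL-10 of their own, and the methods of the study give the donors as 12-week-old males. Marrow of 3 mice was matured into macrophages with medium conditioned by L929 cells, a source of macrophage colony-stimulating factor. Both groups received IL-10 at 10 ng/mL for 12 hours. The LPS + IL-10 cells then received LPS at 50 ng/mL and the Unstimulated + IL-10 cells phosphate-buffered saline (PBS) for 4 hours. IL-10 was thus shared, and LPS was the only labelled difference in treatment. Sequencing lane also differed for replicate 2, which was on lane 7 without LPS and lane 8 with it. The 3 LPS and 3 Unstimulated libraries, labelled untreated but of the same genotype, medium and times, served to show where the response differed with IL-10. The study's methods name a vehicle control before LPS, so the LPS cells may have had vehicle where the Unstimulated cells did not. Matured marrow cells in culture are a model of macrophages in general and not of those of any one tissue.

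LPS, a glycolipid of the outer membrane of Gram-negative bacteria, is handed by CD14 to the receptor complex of TLR4 and MD-2 (encoded by Ly96), which signals through the adaptors MyD88 and TRIF (encoded by Ticam1) to NF-kB, the MAP kinases and IRF3. The first wave of transcripts holds cytokines, chemokines and the feedback inhibitors of the same pathways, and interferon beta made in that wave drives a second wave of interferon-stimulated genes. IL-10 acts through IL10RA and IL10RB, the kinases JAK1 and TYK2 and the factor STAT3, and is known for restraining the inflammatory output of macrophages.

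Promoters of 5 genes are printed because they stand for the arms of the response described further on, namely the NF-kB inhibitor Nfkbia, the cytokine Il6, the antiviral genes Rsad2 and Ifit1, and the MAP kinase phosphatase Dusp1. Each sequence is the 250 bases before the RefSeq start of the gene in build GRCm38.p6, read 5′ to 3′ on the strand of the gene. Capitals mark matches, on either strand, to kappa B letters (GGGANNTTC) in Nfkbia and Il6, to AP-1 letters (TGANTCA) in Il6, to interferon-stimulated response element (ISRE) letters (GAAANNGAA) in Rsad2 and Ifit1, and to cyclic AMP response element (CRE) letters (TGACGTCA) in Dusp1.
Nfkbia, chr12:55492648-55492897, minus strand: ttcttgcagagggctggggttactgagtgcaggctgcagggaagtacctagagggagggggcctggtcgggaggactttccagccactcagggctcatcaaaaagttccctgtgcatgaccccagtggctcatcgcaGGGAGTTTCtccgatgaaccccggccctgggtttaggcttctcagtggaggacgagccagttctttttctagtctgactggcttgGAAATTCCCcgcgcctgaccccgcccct
Il6, chr5:30012864-30013113, plus strand: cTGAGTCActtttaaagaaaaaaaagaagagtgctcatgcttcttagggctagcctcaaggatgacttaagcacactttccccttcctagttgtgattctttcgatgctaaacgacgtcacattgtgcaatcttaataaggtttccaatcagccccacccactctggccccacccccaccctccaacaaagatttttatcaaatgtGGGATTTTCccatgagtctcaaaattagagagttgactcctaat
Rsad2, chr12:26456453-26456702, minus strand: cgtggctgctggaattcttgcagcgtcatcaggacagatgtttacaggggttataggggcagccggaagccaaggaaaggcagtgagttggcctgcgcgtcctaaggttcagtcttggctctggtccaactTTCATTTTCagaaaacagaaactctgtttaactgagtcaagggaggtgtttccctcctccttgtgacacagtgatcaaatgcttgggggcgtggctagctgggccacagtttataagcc
Ifit1, chr19:34640639-34640888, plus strand: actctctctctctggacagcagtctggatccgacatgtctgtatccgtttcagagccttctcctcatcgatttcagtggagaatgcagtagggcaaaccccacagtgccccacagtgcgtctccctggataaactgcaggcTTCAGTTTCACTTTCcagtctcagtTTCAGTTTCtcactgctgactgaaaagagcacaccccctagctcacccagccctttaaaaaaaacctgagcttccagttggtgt
Dusp1, chr17:26508473-26508722, minus strand: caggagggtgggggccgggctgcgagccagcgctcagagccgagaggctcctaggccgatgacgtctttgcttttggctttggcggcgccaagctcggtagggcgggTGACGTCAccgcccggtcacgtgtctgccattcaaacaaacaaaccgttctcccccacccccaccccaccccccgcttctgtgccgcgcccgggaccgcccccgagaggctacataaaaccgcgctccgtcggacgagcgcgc

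Counted from the start, the kappa B matches of Nfkbia began at -113 and -28 and that of Il6 at -44, while the ISRE matches of Ifit1 began at -109, -103 and -84, of which -109 and -103 overlap, and that of Rsad2 at -119. The CRE match of Dusp1 began at -143. Other matches were left in lower case, such as ISRE letters from -53 in Nfkbia and AP-1 letters from -87 in Rsad2. Among all 32851 promoters of the table, each 250 bases before to 50 after the start, kappa B letters were in 3.94%, ISRE letters in 8.56%, AP-1 letters in 7.81% and CRE letters in 1.79%. A match is a stretch of letters and not a measured site. Promoters were matched for 11307 of the 14326 genes tested, 78.9%, which is too few to compare the shares between gene sets.

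LPS moved most of the measured transcriptome of the IL-10-pretreated cells. Of 14326 genes tested with DESeq2, 9597 changed at an adjusted p under 0.05, which is 67% of those tested. The 4757 genes that rose made up 33.2% and the 4840 that fell 33.8%. The median rise was 1.12 and the median fall -1.24 on the log2 scale. Over 4-fold, 1393 genes rose and 1301 fell, and 318 rose and 99 fell by over 5 on the log2 scale. In 9384 of the 9597, the 3 LPS + IL-10 libraries did not overlap with the 3 Unstimulated + IL-10 libraries. The calls came from these same libraries, so the lack of overlap is no separate support for them. For each gene below, the values of replicates 1, 2 and 3 are expected counts normalized with the DESeq2 size factors, in that order, and levels in TPM (transcript abundance corrected for gene length and library size) are group means.

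The direction of small changes rested on the scaling. The genes that rose over 4-fold took 5.44%, 4.94% and 5.13% of all expected counts in the 3 Unstimulated + IL-10 libraries and 33.9%, 32.2% and 34.8% in the 3 LPS + IL-10 libraries. The genes that fell over 4-fold went from 4.58% ± 0.0294 (SD, n = 3) to 0.354% ± 0.0262. With so much of each library taken by risen genes, scaling to total counts moved the median log2 fold change of all genes from -0.05 to -0.88, and log2(TPM + 1) moved it to -0.64. The share of calls that were rises was 49.6% as reported, 46.8% with TMM factors, 21% with total counts and 23.3% with TPM. No called gene changed sign with TMM factors, whereas 1782 did so with total counts, of which the largest had a log2 fold change of size 0.84, and 1522 did so with TPM, of which the largest had 1.07. A rise of less than about 1 is therefore a rise relative to the typical gene and not as a share of the library.

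**Figure D1:**
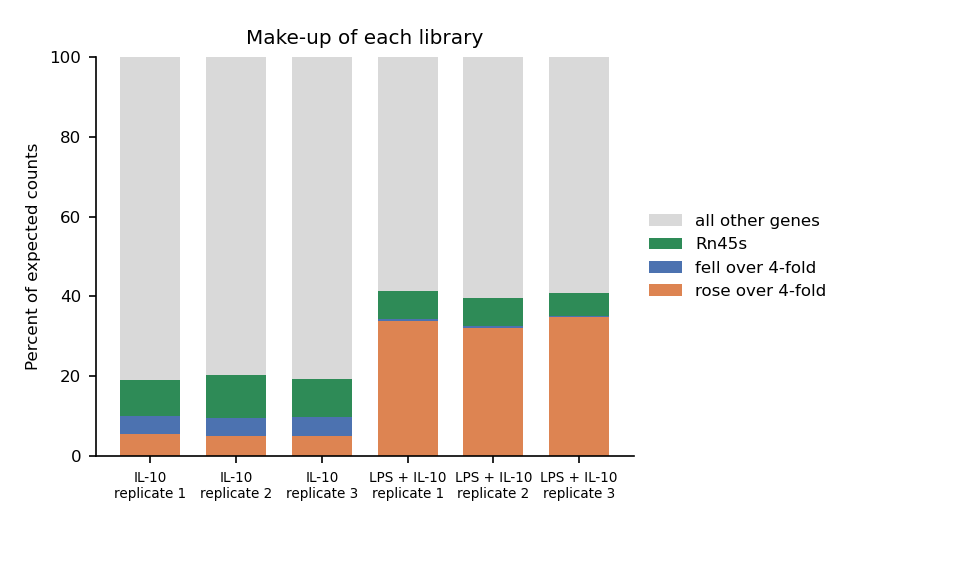
Stacked bars give the percent of all expected counts (y axis) in each Unstimulated + IL-10 and LPS + IL-10 library (x axis) that belonged to genes risen over 4-fold, genes fallen over 4-fold, the ribosomal RNA precursor gene Rn45s and all other genes. The risen genes went from about 5% of each library to 32.2% or more.

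Depth ran from 12946996 to 28289498 expected counts in the 6 libraries, in which 13515 to 14528 genes had a count, and 3 counts were worth 0.106 to 0.232 CPM, a count scaled to library size. The libraries were of macrophages by their markers, since Lyz2 stood at 18076 TPM without LPS and 10737 TPM with it and Cd68 at 1942 and 1213 TPM. Markers of other cells were low. Summed over each list, T cell markers reached 8.88 TPM, B cell markers 4.04, neutrophil markers 70.0, fibroblast markers 21.0, erythroid markers 1.02 and mast cell markers 0.81 in the highest of the 6 libraries, and the neutrophil genes Ly6g, Elane and Mpo were listed at 0. The dendritic cell list reached 87.7 TPM, nearly all of it Itgax, which macrophages also express. Of the other-cell markers, Lck, Xcr1, Pdgfra, Pdgfrb, Gata2, Camp, S100a8, S100a9 and Itgax rose and Cd4, Cd79b and Klf1 fell, and their part in the results was not tested. Pdgfrb went from 0.477 to 12.9 TPM with a log2 fold change of 5.47. Of these 12 markers, 6 passed without each library in turn. Cd4 did not pass without LPS + IL-10 replicate 2 or Unstimulated + IL-10 replicate 1 (adjusted p = 0.0522 and 0.0564), Cd79b without replicate 3 of either group (0.153 and 0.0589), Klf1 without LPS + IL-10 replicate 3 or Unstimulated + IL-10 replicate 2 (0.0549 and 0.0538), Gata2 without Unstimulated + IL-10 replicate 1 (0.0519) and S100a8 without LPS + IL-10 replicate 3 (0.0666). Itgax had overlapping groups, at 2098, 1944 and 2268 against 2724, 2177 and 2469, its level in TPM was lower with LPS, and it did not pass without LPS + IL-10 replicate 1 or 3 or Unstimulated + IL-10 replicate 1 or 2 (0.086 to 0.223). In bulk RNA, fewer cells of a kind and less RNA in each cell cannot be told apart. Il10 itself, the gene disrupted in these mice, was counted at 48.3, 43.0 and 49.0 without LPS and 134, 155 and 177 with it, a log2 fold change of 1.73 ± 0.20 (SE). Counts per gene do not show which exons these reads came from, so they do not check the genotype.

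Nearly all inflammatory cytokine genes responded. Of 22 tested, 21 rose (95.45%) and 0 fell, beside 33.2% and 33.8% of all genes. The median log2 fold change was 8.12. It was 6.73 when the 5 members with no count in any Unstimulated + IL-10 library are set to their lower bound. Only Osm, an IL-6 family cytokine, did not pass, with 90.7, 97.6 and 77.3 against 171, 106 and 75.7. Tnf, the founding member of the tumor necrosis factor family, went from 248, 174 and 233 to 72494, 40773 and 44546, a log2 fold change of 7.91 ± 0.26 (adjusted p = 2.17e-209, DESeq2), and from 21.4 to 3066 TPM. Il1b, which encodes a cytokine matured by the inflammasome, went from 301, 163 and 206 to 91893, 70797 and 79885 and reached 6007 TPM, the highest level of the list. Il1a, its relative, went from 7.85, 5.38 and 1.66 to 18430, 5773 and 10873. In all 3 the groups were far apart, with at least a 100-fold gap between the highest library without LPS and the lowest with it.

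Several cytokine genes were silent until LPS came. Il12b, the shared p40 subunit of IL-12 and IL-23, had no count in any Unstimulated + IL-10 library and 14262, 3537 and 5689 with LPS, which was at least 12890-fold higher when 3 counts over the group are taken as the limit, and at least 8231-fold without LPS + IL-10 replicate 1. Il12a, the p35 subunit of IL-12, had 0 counts and then 379, 85.1 and 149, at least 337-fold higher, or 211-fold without that library. Il23a, the p19 subunit of IL-23, was faint, with 74.4, 4.56 and 13.5 after LPS and at least 49.1-fold higher, or 17.15-fold without LPS + IL-10 replicate 1, which held most of its reads. Il6 had 1 count in the 3 libraries without LPS and 5802, 2061 and 4462 normalized counts with it, a ratio of 21350 with a 95% counting interval of 3832 to 843500 that covers counting error only. Il27, which encodes the p28 subunit of IL-27, went from 0.393, 1.54 and 1.66 to 8508, 4466 and 4858, and reached 982 TPM, whereas its partner Ebi3 was present at 174, 174 and 187 beforehand and went to 3137, 2440 and 2368.

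Some of these genes were uneven between the replicates and others were not. Csf2, which encodes GM-CSF, had 0 counts without LPS and 133, 6.08 and 6.31 with it, so nearly all of its reads were in replicate 1. Csf3, which encodes G-CSF, was more even, with 60.9, 54.7 and 41.5 after LPS from 0, at least 85.3-fold higher. Csf1, the macrophage growth factor, went from 86.4, 66.1 and 56.5 to 7021, 3256 and 3390, with replicate 1 the highest, as for Csf2. Ifnb1, which encodes interferon beta, was at 74.4, 31.9 and 53.2 against 0, 0.768 and 0.831, a ratio of raw counts of 136 (95% counting interval 36.9 to 1135). Replicate 1 of the LPS + IL-10 libraries held the highest value for 15 of the 22 cytokine genes and 13 of the 20 chemokine genes tested. It did so for 16 of 22 antigen presentation genes too. Among all 1237 genes risen over 4-fold with a mean of at least 10 counts there, replicates 1, 2 and 3 were the highest for 42.8%, 16.2% and 41.1%. The summed cytokine level of replicate 1 was 14730 TPM against 10030 and 12660 in replicates 2 and 3. Edn1, which encodes the vasoconstrictor endothelin 1, differed less between replicates, at 4167, 4378 and 5742 from 2 raw counts in all.

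Chemokines followed, with 18 of 20 tested risen (90%) and 1 fallen (5%), beside 33.2% and 33.8% of all genes. Their median log2 fold change was 7.51. With only the 6 libraries compared in the fit, 22 were tested, of which 20 rose and 1 fell. The macrophage inflammatory proteins Ccl3 and Ccl4 were among the most abundant messages of the LPS + IL-10 cells at 10372 and 8232 TPM, up from 58.0 and 48.8. In counts, Ccl3 went from 259, 221 and 247 to 90019, 62074 and 65990 (log2 fold change 8.23 ± 0.14) and Ccl4 from 167, 125 and 184 to 49173, 40322 and 45387 (8.14 ± 0.17). The neutrophil attractants Cxcl1, Cxcl2 and Cxcl3 all rose, Cxcl2 from 45.5, 43.0 and 24.9 to 14785, 7040 and 7663. Of the interferon-inducible ligands of CXCR3, Cxcl9 went from 3.53, 0.768 and 0.831 to 3318, 1201 and 1720, and Cxcl11 from 0 to 704, 562 and 784, at least 1183-fold higher. Cxcl10 received no p-value because 1 library of the 18-library fit was extreme for it, and its counts were 24.0, 13.8 and 13.3 without LPS and 104510, 85883 and 98027 with it. Ccl5 had no p-value for the same reason, at 180, 21.5 and 22.4 against 81071, 74461 and 68332. The 1 chemokine that fell was Cxcl14, at 799, 1027 and 817 against 754, 686 and 478, a log2 fold change of -0.47 whose adjusted p of 0.0145 went to 0.137 without LPS + IL-10 replicate 3 and to 0.118 without Unstimulated + IL-10 replicate 2. Ccl6 was at 1595, 1762 and 1866 against 1370, 1876 and 2378 and did not pass.

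Of the receptors for chemokines, 2 of 11 tested rose (18.2%) and 4 fell (36.4%), beside 33.2% and 33.8% of all genes. Cxcr4, the receptor of CXCL12, had one of the deepest falls of all genes. It lies on chromosome 1 (mm9, 130484776 to 130488870, minus strand) and went from 4138, 4506 and 4132 to 27.1, 30.4 and 25.2, a log2 fold change of -7.29 ± 0.20 (adjusted p = 3.78e-286). Cx3cr1, the fractalkine receptor, fell from 1552, 1200 and 1058 to 234, 228 and 224, and Ccr2, the CCL2 receptor, from 485, 489 and 400 to 65.0, 102 and 116. Ccrl2, a non-signaling chemerin-binding receptor, rose from 84.8, 95.3 and 72.3 to 6369, 5623 and 6786. Ccr1 had overlapping groups and did not pass, with a log2 fold change of 0.26.

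**Figure D2:**
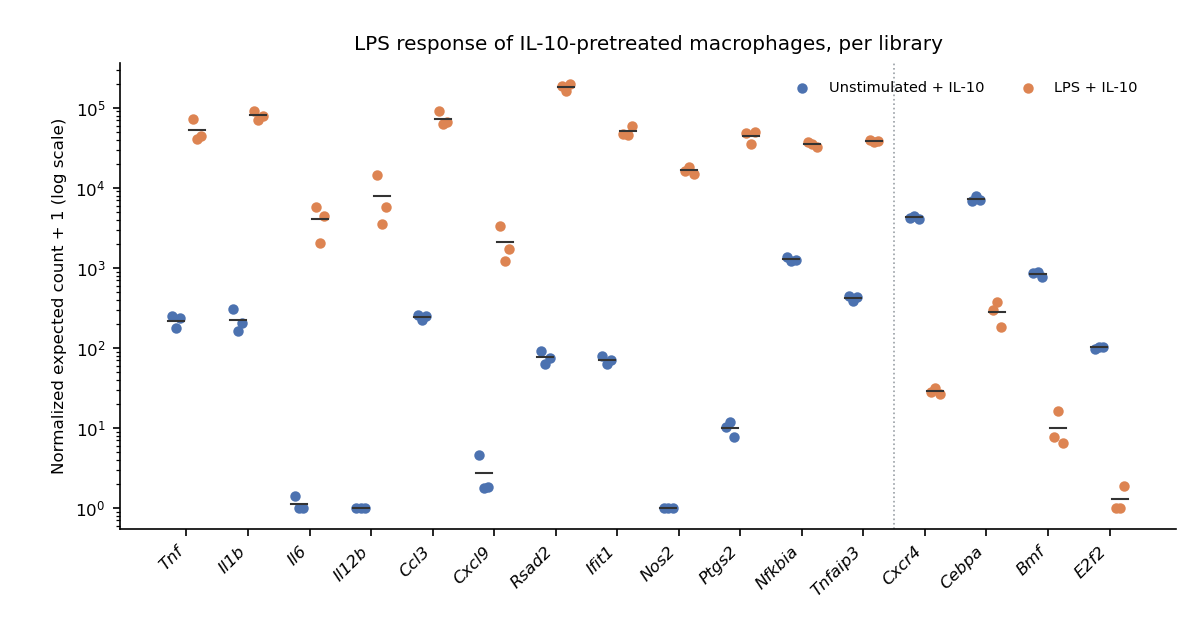
Points give the normalized expected count plus 1 (log axis) of 16 genes in each Unstimulated + IL-10 and LPS + IL-10 library, with a bar at the group mean. The 12 genes left of the dotted line are higher in all 3 LPS + IL-10 libraries, from 0 counts for Nos2 and Il12b, and the 4 genes to the right are lower in all 3.

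The receptor complex and its signaling chain moved in both directions. Of 24 genes tested, 16 rose (66.7%) and 4 fell (16.7%), beside 33.2% and 33.8% of all genes, at a median of 0.82. The counts became 10 and 11 with total-count scaling and 10 and 7 with TPM. Tlr4 fell from 1313, 1303 and 1254 to 430, 441 and 758, and so did the kinase Irak4, from 843, 836 and 805 to 355, 351 and 380. The co-receptor Cd14 rose from 5481, 5071 and 5611 to 33670, 35572 and 34222 and the adaptor Myd88 from 927, 849 and 863 to 8020, 7946 and 7325, a log2 fold change of 3.14 ± 0.07. Irak2, a kinase of the late phase of signaling, had the largest rise of the list at 3.57 ± 0.08, and Irak3, an inhibitory member of the same family, went from 575, 446 and 512 to 3577, 4135 and 3763. Among the kinases on the TRIF arm, Ikbke rose from 1088, 829 and 1065 to 10420, 10891 and 9770. None of these groups overlapped.

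Other sensors of microbes rose in 16 of 21 cases (76.2%) and fell in 3 (14.3%), beside 33.2% and 33.8% of all genes. Their median was 3.13. Nlrp3, the sensor of the best known inflammasome, went from 662, 569 and 642 to 29646, 26576 and 26926, and Nod2, a cytosolic sensor of muramyl dipeptide, from 97.4, 81.4 and 105 to 2744, 2662 and 2438. The inflammasome protease Casp1 rose from 580, 603 and 544 to 4452, 4329 and 6332, and Casp4, which binds cytosolic LPS, from 267, 217 and 224 to 3393, 3236 and 4179. Of the Toll-like receptors, Tlr1, Tlr2, Tlr3, Tlr6, Tlr7 and Tlr8 rose, and Tlr13, a sensor of bacterial ribosomal RNA, fell from 3656, 3741 and 3742 to 410, 505 and 637. The rise of Tlr8, 0.65, was within the size that reverses with the scaling, and its adjusted p went from 0.00282 to 0.088 without LPS + IL-10 replicate 3. Nlrp1b fell to 56.8, 74.5 and 65.8 from 662, 700 and 618.

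NF-kB subunits and their inhibitors rose in 16 of 17 cases (94.1%), beside 33.2% of all genes, with a median of 3.50. Only the deubiquitinase Otulin did not pass. The inhibitor Nfkbia went from 1363, 1226 and 1237 to 36905, 35509 and 32150 and reached 2160 TPM. Tnfaip3, which encodes the deubiquitinase A20, had the largest rise of the list, from 445, 387 and 431 to 39682, 37505 and 38755 (6.52 ± 0.12). Among the subunits, Rel rose by 3.31 ± 0.12, Nfkb1 by 3.81 ± 0.09 and Nfkb2 by 3.97 ± 0.13, against 1.76 ± 0.10 for Rela. Tnip3, an A20 partner, rose from 528, 447 and 524 to 8377, 10191 and 13997.

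Feedback on messages and on MAP kinases was split within families. Of 16 genes tested, 10 rose (62.5%) and 5 fell (31.25%), beside 33.2% and 33.8% of all genes, with a median of 1.38. Among the proteins that bind AU-rich elements and destabilize cytokine messages, Zfp36 (tristetraprolin) rose from 2550, 2566 and 2489 to 15238, 16529 and 13687, whereas its relatives Zfp36l1 and Zfp36l2 fell from 3878, 3627 and 3743 to 120, 102 and 88.4 and from 6297, 6396 and 5710 to 367, 439 and 355. The RNases Zc3h12a and Zc3h12c rose by 3.39 and 3.84. Of the dual specificity phosphatases, Dusp2 rose from 47.5, 40.7 and 59.8 to 8482, 7147 and 7922, Dusp16 from 360, 297 and 323 to 4305, 4854 and 5430 and Dusp1 from 831, 833 and 966 to 5329, 7222 and 6108. Dusp6 and Dusp7, which act on ERK, fell by 0.55 and 0.64.

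At 4 hours the immediate early factors were divided, with 11 of 20 risen (55%) and 7 fallen (35%), beside 33.2% and 33.8% of all genes. The counts became 9 and 9 with total-count scaling and 8 and 7 with TPM. Fos and Jun, the founding AP-1 partners, were below their resting level, Fos at 1599, 1594 and 1549 before and 698, 967 and 637 after, Jun at 1687, 1683 and 1711 and then 1158, 1166 and 985. Junb went the other way, from 3359, 3413 and 3264 to 18533, 17926 and 13870, and Klf6 from 3455, 3406 and 3395 to 20966, 18401 and 25012. Egr1 was at 164, 196 and 193 against 198, 217 and 210 and did not pass. Atf3, a repressor induced by stress and by Toll-like receptors, rose from 3457, 4036 and 3819 to 9638, 8403 and 8522.

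Interferon-stimulated genes rose without exception among the 36 of 38 that could be tested, with a median log2 fold change of 6.00. Their summed level went from a range of 668 to 807 TPM to one of 30470 to 36070 TPM. Rsad2, which encodes viperin and whose promoter is shown above, went from 89.9, 62.2 and 73.1 to 184380, 161790 and 196980 and reached 4357 TPM, the highest of the list, with a log2 fold change of 11.23 ± 0.41 (adjusted p = 3.23e-162). Ifit1, which binds foreign RNA, went from 77.4, 62.2 and 70.6 to 47627, 45198 and 59560. Isg15, a ubiquitin-like modifier, reached 3016 TPM from 16.5, and Cmpk2 2343 TPM from 3.67. Ifi205, a member of the interferon-inducible p200 family, had the largest rise of the list, 11.86 ± 0.85. The p200 genes are near-identical copies in part, so reads may be divided among them.

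Irf9 and Stat2, subunits of a factor that binds ISRE letters, rose by less than the median of the list, at 1.31 ± 0.07 and 4.30 ± 0.17. Irf7 went from 247, 182 and 231 to 21670, 18662 and 17704 and Irf1 from 807, 795 and 815 to 11644, 8572 and 8985. Gbp2 and Gbp5, guanylate-binding proteins that act on the vacuoles of pathogens, had no p-value because of an extreme library. Gbp5 was at 36.1, 43.0 and 40.7 against 59994, 53575 and 56903, and Gbp2 at 130, 121 and 111 against 49786, 41821 and 50048. For none of the 36 did the response with IL-10 differ from that without it at an adjusted p under 0.05, where 7.44% of all genes so tested did, and the smallest adjusted p among them was 0.0872, for Usp18. A p that misses the threshold does not show that the responses were alike, and the Usp18 difference was 1.16 ± 0.44 on the log2 scale.

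**Figure D3:**
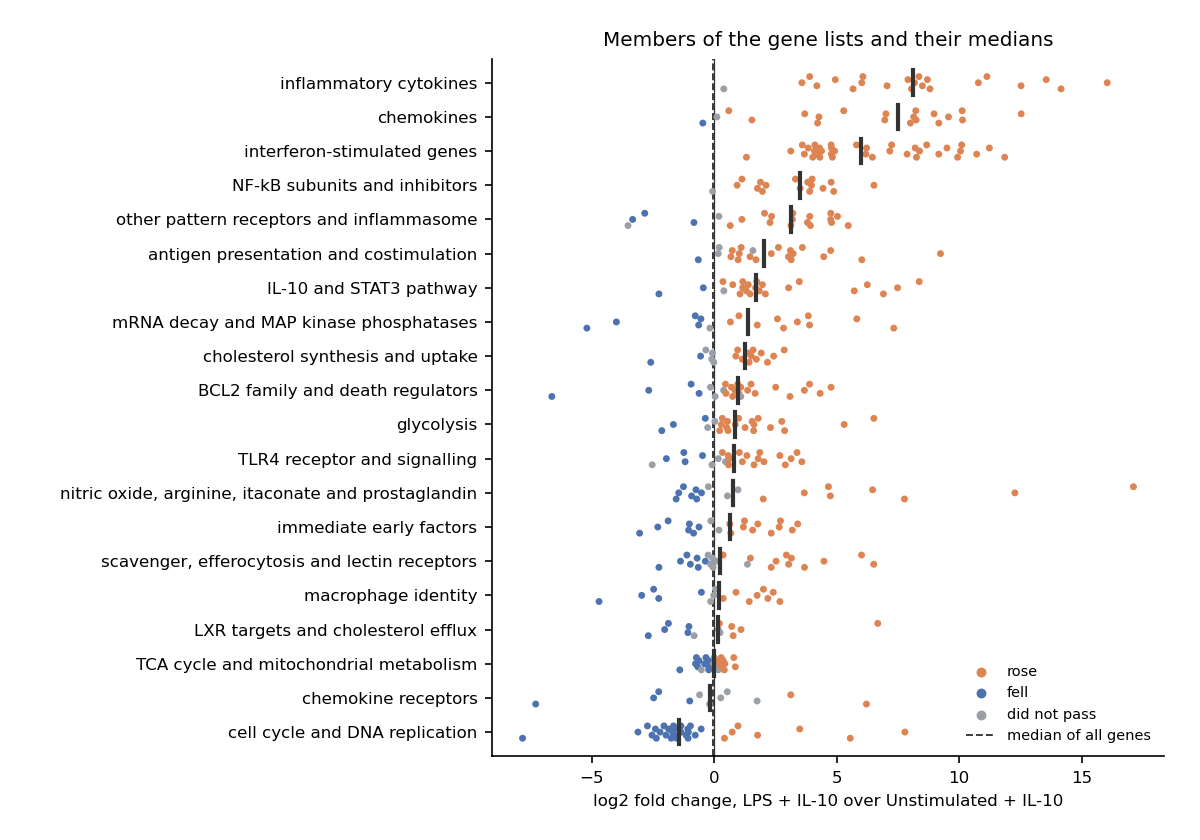
Each point is the log2 fold change of 1 tested gene between LPS + IL-10 and Unstimulated + IL-10 (x axis), in rows by gene list and colored by whether it rose, fell or did not pass, with a thick bar at the list median and a dashed line at the median of all genes, -0.05. Cytokines, chemokines and interferon-stimulated genes lie furthest right, and most cell cycle genes lie left of the line.

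Of 22 genes of antigen presentation and costimulation tested, 18 rose (81.8%) and 1 fell (4.5%), beside 33.2% and 33.8% of all genes. Their median was 2.02. The peptide transporter Tap1 went from 610, 619 and 626 to 18214, 16256 and 15533, and the immunoproteasome subunits Psmb8, Psmb9 and Psmb10 rose by 3.14, 3.11 and 3.03. The class II genes H2-Aa, H2-Ab1 and H2-Eb1 had log2 fold changes of only 0.74, 0.97 and 0.68, within the size that reverses with total-count or TPM scaling, and Ciita, the class II transactivator, was at 105, 83.0 and 108 against 79.8, 51.7 and 57.7. The fall of Ciita, -0.65 with an adjusted p of 0.00889, did not pass without LPS + IL-10 replicate 2 (0.0585) or 3 (0.0593) or Unstimulated + IL-10 replicate 1 (0.0514). The costimulatory receptor Cd40 had the largest rise of the list, from 64.4, 36.1 and 60.6 to 35926, 29297 and 32679 (9.24 ± 0.27), and Cd274, which encodes the checkpoint ligand PD-L1, from 298, 270.5 and 297 to 19624, 17171 and 19539.

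Among the enzymes of small-molecule effectors, Nos2, inducible nitric oxide synthase, which lies on chromosome 11 (mm9, 78734289 to 78773756, plus strand), had no count in any Unstimulated + IL-10 library and 16363, 18223 and 14798 with LPS, at least 27210-fold higher. It was the largest lower bound among genes at 0 without LPS. Slc7a2, which imports arginine, the substrate of the enzyme, rose from 202, 222 and 198 to 18604, 16818 and 19399, Gch1, which makes its cofactor, by 4.74 ± 0.10, and Ass1, which regenerates arginine, by 4.66 ± 0.48. Arg1, which competes for arginine, stayed near the limit of detection at 7.85, 0.768 and 0.831 against 4.06, 7.60 and 3.61. Acod1, which makes itaconate, had no p-value because of an extreme library, and was at 56.9, 14.6 and 24.1 against 145680, 142610 and 144530, or 5196 TPM.

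In prostaglandin synthesis, Ptgs2 (cyclooxygenase 2) had the largest fitted rise among genes with a p-value and more than 3 raw counts in some library of each group, from 9.42, 10.8 and 6.65 to 47791, 35497 and 49891 (12.27 ± 0.66, adjusted p = 1.00e-75). Ptges, which turns its product into prostaglandin E2, went from 25.9, 21.5 and 19.9 to 4589, 5723 and 4651. The constitutive enzyme Ptgs1 fell from 213, 141 and 152 to 74.4, 54.7 and 56.8, and the enzymes of other prostanoids, Hpgds and Tbxas1, fell by 0.72 and 0.75. Over the whole list of 18, 8 rose (44.4%) and 7 fell (38.9%), beside 33.2% and 33.8% of all genes.

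Glycolytic genes rose in 18 of 23 cases (78.3%) and fell in 3 (13.0%), beside 33.2% and 33.8% of all genes, with a median of 0.86. With total-count scaling, however, 11 rose and 10 fell, and with TPM 11 and 9. Rises that held their direction under each scaling included those of Pfkfb3, Slc2a1, Slc2a6 and Hk2. Pfkfb3, which makes the activator of phosphofructokinase, went from 612, 572 and 537 to 19667, 25667 and 22705 (5.30 ± 0.10). The glucose transporter Slc2a1 went from 473, 480 and 488 to 3194, 3718 and 2826, Slc2a6 from 148, 126 and 148 to 13499, 12936 and 12238, and hexokinase Hk2 from 1271, 1379 and 1132 to 6347, 6413 and 5813. Enzymes further down, such as Aldoa, Gapdh, Eno1 and Ldha, had log2 fold changes of 0.33, 0.51, 0.56 and 0.86. Pfkm fell, from 157, 203 and 173 to 29.8, 44.1 and 45.1.

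In a list of 24 genes of the tricarboxylic acid cycle and related metabolism, 9 rose (37.5%) and 10 fell (41.7%). These shares were near the 33.2% and 33.8% of all genes, and the median was -0.01. The counts became 0 and 22 with total-count scaling and 0 and 21 with TPM. The deepest fall was that of Idh1, the cytosolic isocitrate dehydrogenase, from 2464, 2531 and 2476 to 867, 917 and 1028. Idh2, its mitochondrial relative, fell from 515, 535 and 576 to 340, 331 and 290. Of the succinate dehydrogenase subunits, Sdhb fell by 0.34, while Sdha, Sdhc and Sdhd had log2 fold changes of 0.15, 0.29 and 0.36 that reversed with total-count scaling. That of Sdha did not pass without LPS + IL-10 replicate 3 (adjusted p = 0.121) or Unstimulated + IL-10 replicate 2 (0.123).

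Cell cycle genes fell in 25 of 32 cases (78.1%) and rose in 7 (21.9%), beside 33.8% and 33.2% of all genes. Their median was -1.45. The mitotic genes Cdc20, Plk1 and Ccna2 fell from 64.8, 95.3 and 101 to 8.12, 9.12 and 11.7, from 98.2, 89.9 and 135 to 9.47, 27.4 and 13.5, and from 123, 128 and 187 to 13.5, 19.8 and 47.8. E2f2, an activator of replication genes, went from 95.4, 103 and 102 to 0, 0 and 0.902, a ratio of 248 with a counting interval of 44.3 to 9816. Among the members that rose, Ccnd2, a D-type cyclin, went from 29.4, 27.7 and 47.4 to 8638, 5863 and 7994, and the cyclin-dependent kinase inhibitor Cdkn1a (p21) from 972, 1130 and 1153 to 58995, 46425 and 46971. Mki67, the proliferation antigen, rose by 1.77 ± 0.13 whereas Cdc20, Plk1 and Ccna2 fell.

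Transcription factors of macrophage identity diverged. Cebpa fell from 6852, 8006 and 6980 to 292, 371 and 183 (-4.70 ± 0.18), whereas Cebpb rose from 3129, 3128 and 2541 to 15308, 19682 and 11684 and Spi1, which encodes PU.1, from 5736, 5631 and 5521 to 25306, 23616 and 19028. Csf1r, the receptor that keeps these cells alive in culture, fell from 46195, 45162 and 44340 to 31452, 33606 and 29241. In the whole list of 16, 8 rose (50%) and 5 fell (31.25%), beside 33.2% and 33.8% of all genes. The counts became 6 and 9 with either total-count or TPM scaling.

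Of 18 genes of cholesterol synthesis and uptake, 12 rose (66.7%) and 2 fell (11.1%), beside 33.2% and 33.8% of all genes. Their median was 1.26, and with total counts 9 rose and 6 fell. Dhcr7, the last enzyme of one branch, fell from 351, 311 and 357 to 44.7, 59.3 and 63.1. Of the efflux genes, Abca1 fell from 13247, 13548 and 12806 to 5400, 7179 and 6753 and Abcg1 from 3089, 3634 and 3750 to 865, 828 and 875, while Ch25h, which makes 25-hydroxycholesterol, rose from 18.1, 7.68 and 13.3 to 1547, 1316 and 1420. The 13 genes of that list gave 5 rises and 5 falls (38.5% each, beside 33.2% and 33.8% of all genes), or 2 and 9 with total counts.

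Uptake receptors rose in 11 of 24 cases (45.8%) and fell in 7 (29.2%), beside 33.2% and 33.8% of all genes, or 10 and 13 with total counts. Msr1, the class A scavenger receptor, went from 2773, 2271 and 2408 to 16728, 18200 and 22474, and Clec4e (Mincle), a sensor of mycobacterial glycolipid, from 325, 150 and 184 to 12736, 12410 and 17508. The efferocytosis receptor Axl rose by 2.52 ± 0.11 and its ligand Gas6 fell by 1.38 ± 0.09. Among death regulators, 17 of 25 rose (68%) and 4 fell (16%), beside 33.2% and 33.8% of all genes. With total counts 10 rose and 9 fell. Cflar, which blocks caspase 8, went from 1484, 1412 and 1356 to 29163, 25569 and 30324, and Mlkl, the effector of necroptosis, from a mean of 96.9 to 2758, 2417 and 2703. Bmf and Bcl2, a killer and a guardian of the same family, both fell, Bmf from 870, 878 and 761 to 6.77, 15.2 and 5.41 and Bcl2 from 102, 108 and 116 to 17.6, 9.12 and 21.6.

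By size alone, the 8 largest rises among genes with an adjusted p under 0.05, a mean normalized count of at least 100 and more than 3 raw counts in some library of each group were Ptgs2, Ifi205, Rsad2, Il1a, Oasl1, Cd69, Cxcl3 and Cxcl9, from 12.27 down to 10.12 on the log2 scale. Cxcl10, Acod1 and Gbp5 lie in this range or above it, up to 12.45 for Cxcl10, but had no p-value. Cd69, an early activation antigen of lymphocytes, went from 16.9, 6.92 and 5.82 to 13875, 8020 and 13118. Adamts4, a matrix protease, was chosen among the genes nearly silent without LPS, with 2 raw counts and then 6774, 3943 and 4719, a ratio of 12940 (counting interval 3580 to 106800).

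Within the same limits, the 8 largest falls were those of Cnr2, Cxcr4, Arhgap19, Zfp395, Engase, Bmf, Sox4 and Lpin1, from -7.36 to -6.53. Cnr2, the cannabinoid receptor of immune cells, went from 450, 500 and 424 to 6.77, 0 and 1.80. Lpin1, a phosphatidate phosphatase, went from 445, 516 and 484 to 6.77, 6.08 and 3.61. Genes with at most 3 raw counts in every LPS + IL-10 library were ranked apart, and of these the Wnt pathway gene Frat1 dropped from 207, 273 and 245 to 0, 0 and 0.902, a ratio of 584 with a counting interval of 105 to 23100. Pisd-ps1, a pseudogene, and Tmem254c, a member of a family of copies, were at 0 in all 3 LPS + IL-10 libraries. Without LPS, Pisd-ps1 was at 130.4, 256 and 0, so that its groups overlap, and Tmem254c at 94.6, 128 and 2.49, and their reads may be shared with near-identical copies.

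The most abundant messages with a rise that passed were Rmrp, Rn45s, Fth1, Actb, Ccl3, Tmsb4x, Ccl4, Il1b, Sdc4 and Rsad2, from 34734 down to 4357 TPM. Ccl5 at 18745 TPM, Saa3 at 9912, Cxcl10 at 9103 and Acod1 at 5196 also lie in this range but had no p-value. Rmrp and Rn45s are noncoding RNAs whose rises of 0.65 and 0.26 reversed with total-count and TPM scaling, and Rn45s did not pass without LPS + IL-10 replicate 1 (adjusted p = 0.213) or 2 (0.132) or Unstimulated + IL-10 replicate 1 (0.188) or 3 (0.132). Sdc4, a heparan sulfate proteoglycan of the cell surface, went from 1699, 1504 and 1758 to 120520, 124940 and 119840 and to 4633 TPM. Actb, cytoskeletal actin, rose from 90649, 86400 and 95011 to 293090, 275180 and 271340, a log2 fold change of 1.63 ± 0.07.

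The genes of IL-10 signaling itself were moved by LPS in cells that already held IL-10. Of 23 genes tested, 20 rose (87.0%) and 2 fell (8.7%), beside 33.2% and 33.8% of all genes, with a median of 1.69. The receptor chain Il10ra went from 2531, 2490 and 2530 to 7733, 6416 and 6652 and Stat3 from 2972, 2994 and 2840 to 10008, 9279 and 9027. Socs3, an inhibitor of cytokine receptors that STAT3 induces, was at 931, 703 and 691 before LPS and 41996, 43947 and 36287 after it. Il1rn, the interleukin 1 receptor antagonist, went from 180, 167 and 174 to 16639, 21704 and 24234, and Slfn4 from 3.14, 5.38 and 3.32 to 1095, 1237 and 1413.

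Whether the response differed with pretreatment was asked of 10808 genes, as the LPS effect with IL-10 minus the LPS effect without it. The difference passed for 804, which is 7.44%, with a more positive response in 432 (4%) and a more negative one in 372 (3.44%). Of the 804, 215 rose with IL-10 and had a more positive response than without it, and 267 rose with a more negative one. Another 170 fell with IL-10 with a more positive response and 75 with a more negative one, and 77 were not called in the IL-10-pretreated cells. These counts leave the direction without IL-10 aside, and some genes, such as Ggta1, went the other way without it. The pretreated and unpretreated cells gave 9597 and 9656 calls, of which 8761 were shared, 91.3% of the first and 90.7% of the second, and 34 of these went in opposite directions. The responses share no library, but the labels describe matched cultures of the same 3 mice. Unstimulated replicate 1, which belongs to the baseline without IL-10, stood above its group for 71.8% of the 898 genes that rose over 4-fold there, with a summed interferon-stimulated level of 1531 TPM against 692 and 795. Without it 748 differences passed, 662 of them among the 804. Unstimulated + IL-10 replicate 1 was the highest of its group for 52.1% of 868 such genes, and without it 9059 genes changed with LPS.

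Of the genes of messenger RNA decay and MAP kinase phosphatases, 4 of 15 had a more positive response with IL-10 and 1 a more negative one. The counts were 3 and 3 of 17 for NF-kB subunits and inhibitors and 5 and 4 of 23 for the IL-10 and STAT3 list. Among all genes the shares were 4% and 3.44%. With each of the 12 libraries left out in turn, 4 and 1, 2 and 1, and 4 and 3 of these passed each time. The differences given next for Dusp1, Tnip3, Il1rn, Dusp16, Irak3 and Tnip1 passed without any 1 of the 12 libraries. Dusp1 rose 2.43 ± 0.20 more with IL-10 (adjusted p = 1.76e-31), and the LPS libraries without IL-10 held 1311, 1570 and 1468 against 1151, 978 and 1169 in Unstimulated cells. Tnip3 went from 731, 555 and 617 to 3501, 3234 and 5159 without IL-10, and its difference was 1.80 ± 0.27. For Il1rn the LPS libraries without IL-10 held 7724, 8447 and 9909 against 16639, 21704 and 24234 with it, and the difference was 1.29 ± 0.22. The same direction was seen for Dusp16 (1.10 ± 0.17), Irak3 (0.82 ± 0.17) and Tnip1 (0.80 ± 0.18).

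**Figure D4:**
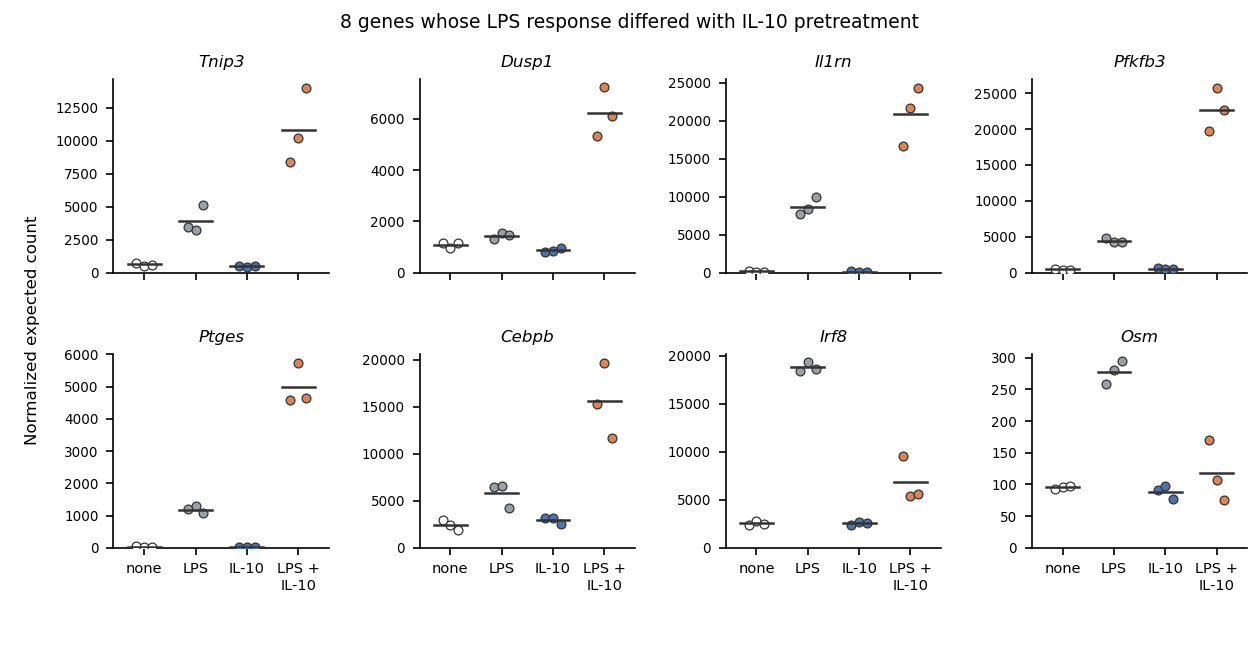
Panels give the normalized expected count (y axis, from 0) of 8 genes in the Unstimulated (none), LPS, Unstimulated + IL-10 and LPS + IL-10 groups, with 3 libraries as points and the mean as a bar. Tnip3, Dusp1, Il1rn, Pfkfb3, Ptges and Cebpb are highest in the 3 LPS + IL-10 libraries, whereas Irf8 and Osm are highest in the 3 LPS libraries.

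Of 23 glycolysis genes, 4 had a more positive and 1 a more negative response with IL-10, beside 4% and 3.44% of all genes. With each library left out in turn, 3 and 1 of these passed each time. Of 16 macrophage identity genes 5 were more positive and 2 more negative, of which 3 and 2 so passed. Immediate early factors gave 6 and 0 of 17, of which 5 and 0 so passed. For chemokines the counts were 0 and 5 of 19, of which 0 and 2 so passed. Pfkfb3 went from 531, 447 and 449 to 4790, 4291 and 4256 without IL-10, so that the response was 2.08 ± 0.15 larger with it (adjusted p = 1.38e-42), and the lactate exporter Slc16a3 differed by 0.78 and Slc2a1 by 0.61 in the same direction. Hif1a, a regulator of glycolytic genes, differed the other way, by -0.66. Ptges, at 50.1, 11.8 and 21.5 and then 1200, 1291 and 1072 without IL-10, responded 2.46 ± 0.32 more. Cebpb rose more with IL-10 by 1.16 ± 0.27, and the fall of Cebpa was smaller by 1.04 ± 0.26. The falls of Fos, Jun, Dusp6 and Dusp7 were smaller too, by 1.12, 0.62, 1.03 and 1.01. Of 18 cholesterol synthesis and uptake genes, Fdft1, Lss and Sqle passed, with differences of 0.95, 0.81 and 0.80.

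Smaller or more negative responses with IL-10 whose difference passed without any 1 library included factors and signaling genes. Irf8, an interferon regulatory factor of myeloid cells, went from 2403, 2753 and 2466 to 18417, 19337 and 18685 without IL-10 but from 2380, 2738 and 2547 to 9619, 5416 and 5572 with it, a difference of -1.46 ± 0.23. Osm, which did not pass with IL-10, reached 259, 280 and 295 from 93.3, 96.4 and 97.2 without it (-1.15 ± 0.31). Ccl3 differed by -0.86 ± 0.20, Stat3 by -0.75 ± 0.13, Rel by -0.71 ± 0.17, Il10ra by -0.63 ± 0.10 and Cdkn1a by -0.62 ± 0.13. Ciita and Dusp10, which fell with IL-10, had more negative responses with it, with differences of -1.35 ± 0.33 and -1.56 ± 0.39. The fall of Ciita was lost without some single libraries, as given above. That of Dusp10 did not pass without LPS + IL-10 replicate 1 (adjusted p = 0.0787, DESeq2). For Tnf, Il1b, Il6 and Il12b the difference did not pass, with values of -0.79 ± 0.36, -1.53 ± 0.61, 1.40 ± 1.41 and 3.44 ± 1.87. The values of Il6 and Il12b rest on baselines at or near 0 counts. After LPS, Il6 stood at 13638, 11195 and 17655 and Il12b at 42189, 38525 and 48725 without IL-10, all above the LPS + IL-10 libraries. With the replicate block, a term for the replicate number, the differences of Tnf and Il1b did pass (DESeq2). Their adjusted p values were 0.00205 and 0.0196 against 0.215 and 0.118.

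Ggta1, which makes the alpha-gal epitope, and Cd300lb, an activating receptor of myeloid cells, were among the largest positive differences. Ggta1, on chromosome 2 (mm9, 35255699 to 35318751, minus strand), went from 1304, 1286 and 1316 to 2056, 3020 and 3101 with IL-10 and from 867, 998 and 1049 to 91.9, 113 and 140 without it, a difference of 4.14 ± 0.23. Cd300lb fell in both, to 181, 269 and 198 from 3020, 3166 and 3246 with IL-10 and to 56.6, 44.5 and 28.2 from 3099, 3559 and 3700 without it. The semaphorin Sema4c rose from 217, 201 and 205 to 2799, 3513 and 2913 with IL-10 and from 186, 191 and 180 to 332, 375 and 333 without it (2.97 ± 0.17), and Rnd1, a GTPase that disrupts actin fibers, from 9.03, 9.22 and 11.6 to 2619, 3679 and 2724 against 9.26, 16.9 and 11.4 to 373, 438 and 298 (3.28 ± 0.39). Lcn2, a protein that sequesters bacterial siderophores, differed by 3.39 ± 0.59 and the transcription factor Creb3l1 by 2.51 ± 0.34.

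Of the 8 largest positive differences, those of Nos2 and Serpinb2 did not pass without some single libraries. For Nos2 the difference of 4.62 ± 1.28 (adjusted p = 0.00648) became 0.85 (adjusted p = 0.93) without Unstimulated replicate 1, the library without IL-10 in which Nos2 had 6.94 normalized counts and the others of its group had 0. It was 4.28 (adjusted p = 0.0748) without Unstimulated + IL-10 replicate 1 and 4.38 (adjusted p = 0.0629) with the replicate block. With LPS, the Nos2 counts without IL-10 were 15493, 15956 and 14663, beside 16363, 18223 and 14798 with it. For the protease inhibitor gene Serpinb2 the difference of 3.23 was 4.21 (adjusted p = 0.0777) without Unstimulated + IL-10 replicate 1 and 2.49 (adjusted p = 0.171) without Unstimulated replicate 3, and it passed with the replicate block (adjusted p = 0.00539).

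Among the largest negative differences, Socs3, on chromosome 11 (mm9, 117827393 to 117831361, minus strand), had -2.71 ± 0.74, with 174, 23.7 and 36.2 in Unstimulated cells and 28847, 28375 and 23772 in LPS cells. Its counts with LPS were thus higher with IL-10 in each same-numbered pair, and its baseline with IL-10 was higher by more. The RNA-binding protein gene Arid5a, which stabilizes Il6 messages, went from 422, 417 and 432 to 2276, 1592 and 1605 with IL-10 and from 210, 159 and 140 to 3513, 3692 and 3186 without it (-2.24 ± 0.21). Ednrb, Cdk5r1 and Rhob differed by -1.91, -1.85 and -1.59, and of these Cdk5r1 did not pass with IL-10, at 73.8, 73.0 and 83.1 against 83.9, 38.0 and 48.7. The differences of Fgl2 (-1.89), Ccl2 (-1.75) and Clcf1 (-1.68) each failed to pass without some single libraries. That of Fgl2 had adjusted p values of 0.0534 to 0.125 without LPS + IL-10 replicate 2, Unstimulated + IL-10 replicate 1 or 3, LPS replicate 1 or 3, or Unstimulated replicate 2 or 3. That of Ccl2 had 0.0514 to 0.0933 without LPS + IL-10 replicate 2, Unstimulated + IL-10 replicate 3, LPS replicate 3, or Unstimulated replicate 2 or 3. That of Clcf1 had 0.0599 to 0.212 without LPS + IL-10 replicate 2 or 3, Unstimulated + IL-10 replicate 1 or 2, LPS replicate 1 or 3, or Unstimulated replicate 2 or 3.

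**Figure D5:**
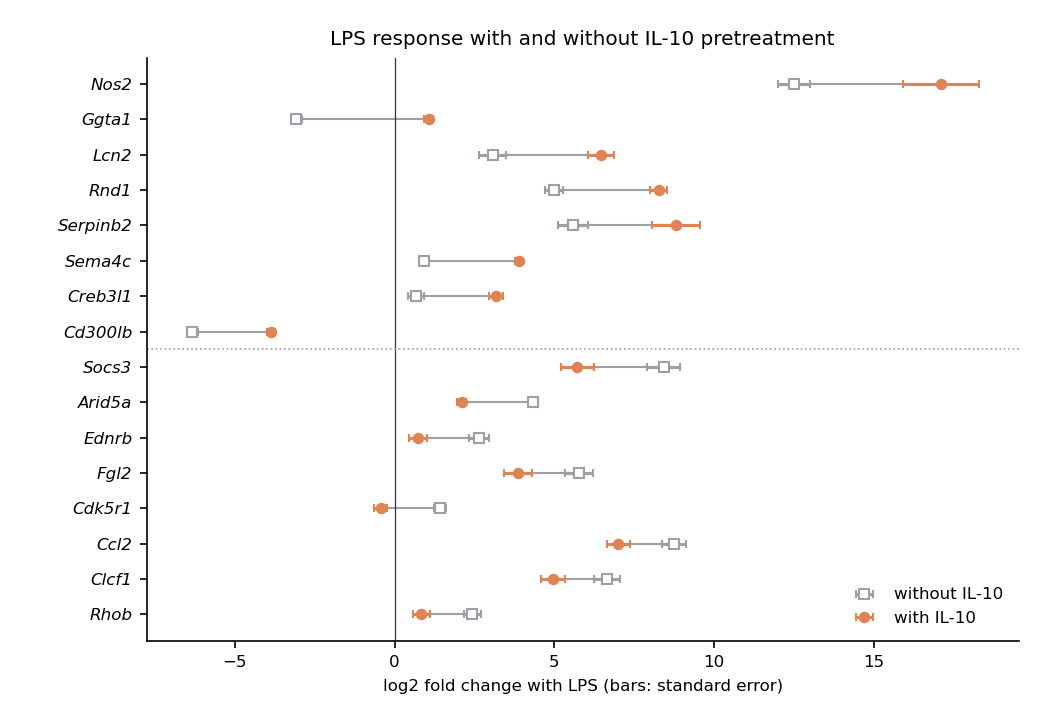
For the 8 largest positive (above the dotted line) and 8 largest negative differences, squares give the log2 fold change with LPS without IL-10 and circles that with IL-10 (x axis), with bars of 1 standard error. Ggta1 and Cdk5r1 lie on opposite sides of 0 with and without IL-10, and Nos2 has the widest bars.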

How the data were processed

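The authors sequenced stranded, ribosomal RNA-depleted libraries as paired ends, and aligned the reads to mm9 with STAR. The deposited values are expected counts and TPM per gene from RSEM 1.2.31, in which reads that match several genes are divided among them, and the strand setting of the counting is not given in the sources used here, so overlapping antisense genes and near-identical copies are uncertain. Deposited FPKM values were not used. Expected counts were rounded and fitted in all 18 libraries with DESeq2 1.42.0 (R 4.3.3), with a term for group, size factors by median of ratios, the Wald test and a Benjamini-Hochberg adjusted p under 0.05, as the study's methods describe. Errors of log2 fold changes are standard errors. Alternatives used edgeR 4.0.16 and limma 3.58.1 on log2(TPM + 1) or log2(TPM + 0.1), and the steps were tested on simulated data.

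The genes named were the 8 largest changes each way with a mean normalized count of at least 100, 4 each way among genes with at most 3 counts in every library of one group, the 10 most abundant risen genes, the 8 largest differences in response each way, and members of written gene lists. Members and lists were chosen with earlier results of these data known. Bounds and intervals cover counting error only. Gene positions are from GENCODE on mm9, and promoters from RefSeq on GRCm38.p6.

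The labels describe matched cultures of 3 mice, so replicate numbers were taken to mark the mouse. The correlation of same-numbered LPS + IL-10 and Unstimulated + IL-10 libraries in their deviations from the group means was -0.0392, 0.0913 and -0.1402. Between differently numbered libraries it ran from -0.2111 to 0.2112, so these values do not show the pairing. Replicate 1 was on sequencing lane 7, replicate 3 on lane 8, and replicate 2 on lane 7 without LPS and lane 8 with it.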

Additional observations from a re-analysis of the deposited data

Results flagged for a closer look

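The response to LPS differed with IL-10 pretreatment by a test of the difference itself (DESeq2, adjusted p under 0.05) for 804 of 10808 genes, with a more positive response in 432 and a more negative one in 372. The largest positive differences on the log2 scale, response with IL-10 minus response without it, were those of Nos2 (4.62), Ggta1 (4.14), Lcn2 (3.39), Rnd1 (3.28), Serpinb2 (3.23), Sema4c (2.97), Creb3l1 (2.51) and Cd300lb (2.46). The largest negative differences were those of Socs3 (-2.71), Arid5a (-2.24), Ednrb (-1.91), Fgl2 (-1.89), Cdk5r1 (-1.85), Ccl2 (-1.75), Clcf1 (-1.68) and Rhob (-1.59). The differences of Nos2, Serpinb2, Fgl2, Ccl2 and Clcf1 did not pass without some single libraries. Without Unstimulated replicate 1, that of Nos2 was 0.85 (adjusted p = 0.93, DESeq2). No explanation was tested for the differences listed here. With groups of 3, the fits without 1 library show which differences rest on it but do not test whether that library is extreme.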

How the results depend on the processing

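The count of genes changed by LPS, 9597, was 9628 with the replicate block (9519 genes shared), 9501 with lane as a covariate, 9607 with edgeR, 9538 with TMM factors, 9060 with only the 6 libraries compared, 7852 with at least 10 counts in each of them, and between 9029 and 9273 when 1 library was left out. The count of differing responses, 804, was 904 with the replicate block (777 genes shared), 852 with lane, 701 with edgeR, 673 with only the 12 libraries compared, and between 597 (without LPS + IL-10 replicate 2) and 1023 (without LPS + IL-10 replicate 3). Scaling moved the split of the calls. Genes that rose numbered 2138 with log2(TPM + 0.1), 2145 with log2(TPM + 1) and 2281 with total counts, under which 8590 fell. Differing responses numbered 523 with log2(TPM + 0.1), of which 169 were negative, with 225 negative under log2(TPM + 1) and 690 positive under total counts, where positive differences were 73.6% of the calls against 53.7%. The reversed log2 fold changes among genes named by size or abundance were those of Rmrp, -0.20 with both TPM fits and -0.18 with total counts, and Rn45s, -0.46 with both TPM fits and -0.57 with total counts. With edgeR the differences of Nos2, Ccl2 and Clcf1 and the fall of Pisd-ps1 did not pass, and with both TPM fits neither did the Nos2 difference (0.31 with log2(TPM + 1)), the fall of Pisd-ps1 or the rise of Tmsb4x. Apart from the Nos2 difference, 4.38 with the block, the replicate block ended no call of a gene named by size or abundance. Of 385 called genes that were named by size or abundance or belong to the response lists, the markers of other cells left out, 367 passed without each library in turn, and of 88 differing responses 61 did.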

Other observations

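In all, 9 genes with a mean above 10 counts had no p-value in DESeq2 because 1 library was extreme, and Unstimulated replicate 1 was the highest of its group for 7 of them. They were Acod1, Ccl5, Cfb, Cxcl10, Evi2b, Gbp2, Gbp5, Gm18853 and Saa3, and were looked at after their values were seen. Saa3, an acute-phase apolipoprotein, stood at 754, 143 and 137 normalized counts in the Unstimulated + IL-10 libraries and 30870, 57050 and 30757 in the LPS + IL-10 libraries. Cfb, complement factor B, stood at 75.0, 9.99 and 10.8 without LPS and 3833, 4382 and 3840 with it. Evi2b went the other way, at 1291, 1113 and 1310 against 25.7, 0 and 193, with replicate 3 the highest of the 3 libraries with LPS.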
